A study of Homo sapiens with 9 samples.

Results

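The genes for the ERBB receptors and their ligands were followed through RNA sequencing of RKO cells with a disrupted DIP2C gene, made to learn whether loss of DIP2C alters gene expression. They were taken by name, the receptors EGFR, ERBB2, ERBB3 and ERBB4 and the ligands AREG, EREG, HBEGF, TGFA, BTC and NRG1, which are 10 of the 23619 genes with a value in each sample. RKO cells come from a human colorectal carcinoma. The samples were 2 of parental RKO, 2 DIP2C-/- clones (E3 and C10) and 5 DIP2C+/- clones (A6-C9, A9-A12, F6-A7, G1-A5 and H9-A4), with 48 h of growth and 1 library for each. In the edited clones, recombinant adeno-associated virus had been used to delete part of DIP2C exon 9. Each clone grew from a single cell, was selected with Geneticin and then lost its selection cassette through Cre, and further targeting of a DIP2C+/- clone gave the DIP2C-/- clones. The study derives both DIP2C-/- clones from the same DIP2C+/- clone, which the labels do not name, so the tests and the SD of these 2 clones treat as independent a pair that shares a parent clone. No clone that went through these steps with DIP2C intact was analysed here, so a difference from parental RKO cannot be told apart from an effect of cloning and selection. The study describes 3 DIP2C+/- clones where 5 were analysed here. The labels do not say how the 5 relate to those 3. Some DIP2C+/- clones may therefore share a parent clone too, while the tests treat all of them as independent. The labels do not say whether the parental samples were separate cultures, so p-values measure the spread between these samples, which may be partly technical.

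ERBB receptors are tyrosine kinases of the cell surface that pair with one another when a ligand binds. EGFR takes EGF-like ligands such as AREG, TGFA and HBEGF, and ERBB3 and ERBB4 take neuregulins. ERBB2 has no known ligand of its own and ERBB3 has little kinase activity, so the pair of ERBB2 and ERBB3 depends on both partners, and it signals strongly to PI3K. Active receptors also feed the RAS and ERK cascade, and EGFR signalling is a target of antibodies used in colorectal cancer.

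Reference promoters are given for the most abundant receptor and the most abundant ligand, ERBB2 and HBEGF, and for AREG and EREG, neighbouring ligand genes with very few reads in these cells. They are RefSeq sequences of the 250 bases before the annotated start on GRCh38.p14, for 4 of the 8 genes that matched (10 start sites in all). ERBB3 and NRG1 did not match. EREG lies at chr4:74364895-74365144 and AREG at chr4:74444886-74445135, both on the plus strand, ERBB2 at chr17:39687844-39688093 on the plus strand, and HBEGF at chr5:140346604-140346853 on the minus strand. Capitals mark CG dinucleotides and the letters TATAAA, the core of the TATA box, searched on the strand of the gene only.
ERBB2: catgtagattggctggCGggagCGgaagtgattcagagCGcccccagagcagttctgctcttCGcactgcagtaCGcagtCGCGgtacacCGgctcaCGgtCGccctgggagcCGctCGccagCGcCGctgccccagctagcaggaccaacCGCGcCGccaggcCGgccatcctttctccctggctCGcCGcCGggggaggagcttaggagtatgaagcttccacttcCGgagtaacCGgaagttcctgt
HBEGF: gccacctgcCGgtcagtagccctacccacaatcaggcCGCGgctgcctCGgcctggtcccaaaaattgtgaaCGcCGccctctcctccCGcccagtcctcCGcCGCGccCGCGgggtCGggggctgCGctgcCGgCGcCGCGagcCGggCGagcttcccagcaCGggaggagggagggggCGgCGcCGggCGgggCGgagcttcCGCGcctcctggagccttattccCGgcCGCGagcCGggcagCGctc
AREG: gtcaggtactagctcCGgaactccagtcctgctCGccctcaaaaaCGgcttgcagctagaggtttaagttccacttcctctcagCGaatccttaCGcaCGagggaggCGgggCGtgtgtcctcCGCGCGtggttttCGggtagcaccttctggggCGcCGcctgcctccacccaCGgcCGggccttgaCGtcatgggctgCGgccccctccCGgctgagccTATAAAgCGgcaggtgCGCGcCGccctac
EREG: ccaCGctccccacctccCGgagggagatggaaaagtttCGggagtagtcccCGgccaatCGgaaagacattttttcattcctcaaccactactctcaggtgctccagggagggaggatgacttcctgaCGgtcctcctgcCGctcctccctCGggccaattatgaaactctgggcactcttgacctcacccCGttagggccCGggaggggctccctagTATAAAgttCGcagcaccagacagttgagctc
TATAAA began 29 bases before the start in AREG and 32 before it in EREG, and was not found in the windows of ERBB2 and HBEGF. A second start of EGFR also held it. Of all 35116 windows, 6.80% held it. The windows held 23 CG dinucleotides in ERBB2, 33 in HBEGF, 23 in AREG and 11 in EREG, against a median of 11 over all windows. These are matches of letters in the reference, and neither promoter activity nor methylation was measured in the values used here.

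Levels are given as CPM, a count divided by the size of its library in units of 1000000 counts, with library sizes scaled by TMM factors. Total counts were 14772593 to 21486483 per sample, and 3 reads, taken as the least that counts as detected, came to 0.121 to 0.175 CPM. DIP2C itself had 61.0 and 70.9 CPM in the parental samples and 17.4 and 22.8 CPM in the DIP2C-/- clones. In the DIP2C+/- clones it had 33.6 to 56.3 CPM with a median of 41.7, and H9-A4 was the highest. Every clone thus lay below both parental samples, but the value is 1 per gene and cannot separate the deleted stretch. Its log2 fold change was -1.71 in DIP2C-/- clones (SE 0.254, adjusted p = 0.0998, edgeR quasi-likelihood) and -0.60 in DIP2C+/- clones (SE 0.200, adjusted p = 0.386), and without H9-A4 the adjusted p was 0.00103 and 0.0285. H9-A4 stood apart from the other clones of its genotype. Pairs of DIP2C+/- clones that include H9-A4 had chi-square values of 100.2 to 117.7 for each degree of freedom across genes, against 18.0 to 55.1 in other pairs of libraries of 1 group. Results are therefore given with and without H9-A4, which was singled out with its values known. Of the colorectal epithelium markers, KRT18 had 121 to 293 CPM and CDX2 15.6 to 19.8, whereas KRT19 and CDH1 were under 1 CPM in every sample, and the 7 listed markers summed to 150 to 331 CPM. Markers of stroma summed to 2.26 to 5.35 CPM, of leukocytes to 0.822 to 1.85 and of endothelium to 0.480 to 1.94.

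ERBB2 was the most abundant of the 10 transcripts per kb in every sample except A9-A12, where HBEGF exceeded it, and ERBB3 was the second in parental RKO and H9-A4. Levels were set side by side per kb of the canonical transcript, which assumes that this transcript is the one expressed. In parental RKO the mean CPM per kb was 29.5 ± 1.01 for ERBB2, 11.6 ± 1.08 for ERBB3, 6.62 ± 0.483 for HBEGF, 3.23 ± 1.16 for EGFR and 2.81 ± 0.537 for TGFA (SD, n = 2). The ranges of EGFR and TGFA overlapped there, and the first 3 did not overlap with their neighbours. NRG1, AREG, ERBB4, EREG and BTC each averaged under 0.1 CPM per kb, in an order that their spread does not fix. In the DIP2C-/- clones ERBB3 came last of the 5 abundant genes, at 1.11 ± 0.158 CPM per kb, after ERBB2 at 21.1 ± 0.337, HBEGF at 4.75 ± 0.774, EGFR at 3.84 ± 0.465 and TGFA at 1.61 ± 0.318 (SD, n = 2). The range of ERBB3 in these 2 clones lay just under that of TGFA, 1.00 to 1.22 against 1.39 to 1.84.

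**Figure D1:**
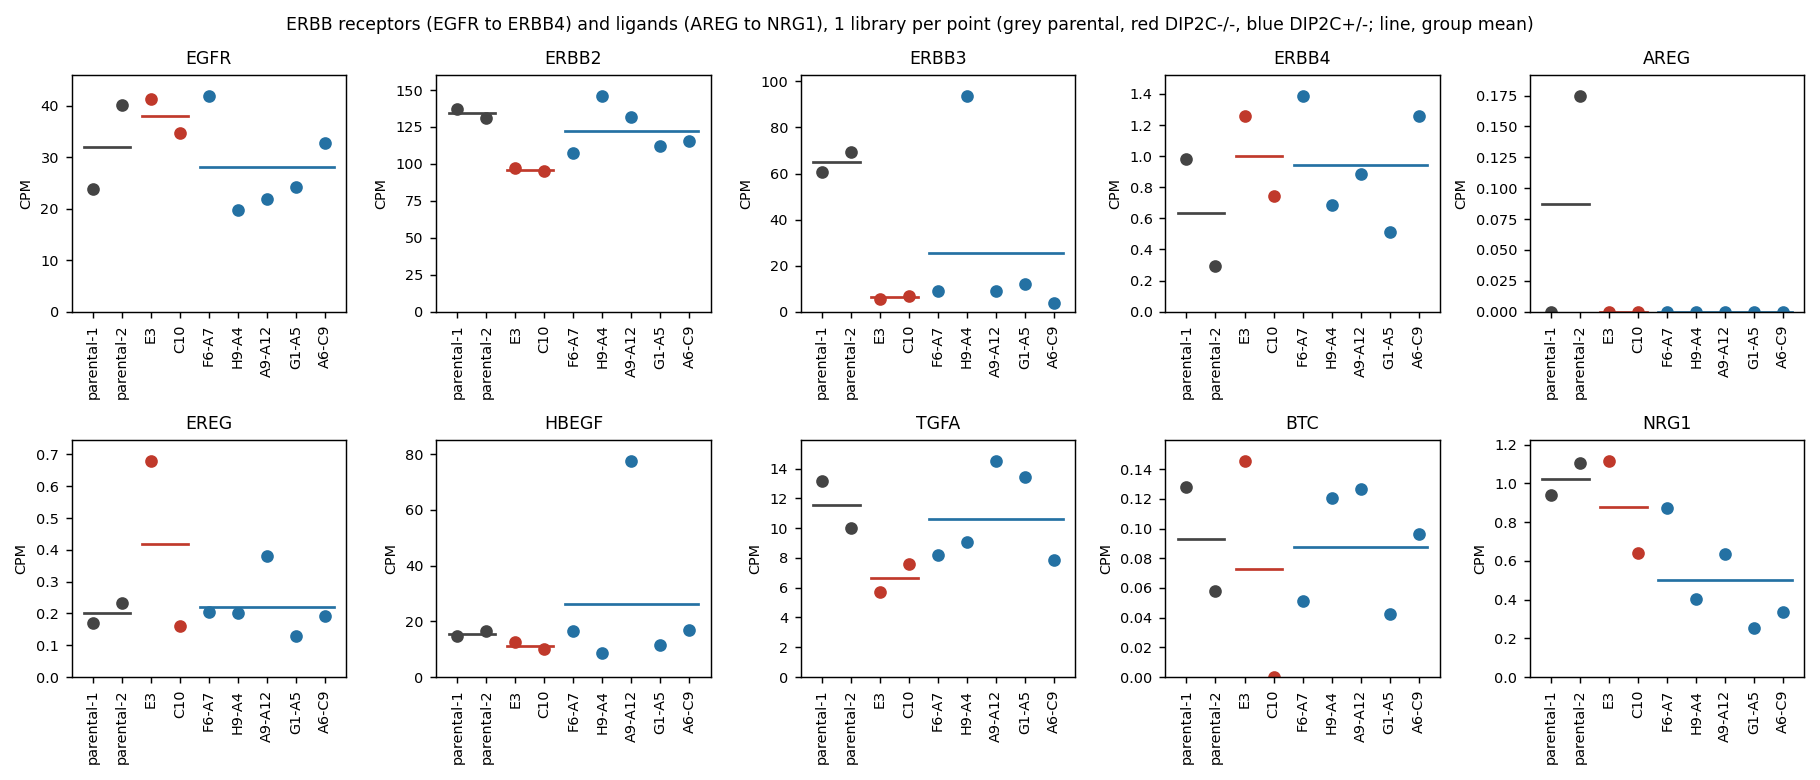
CPM (vertical axis, linear from 0, a different scale in each panel) of the 10 genes in each of the 9 libraries, with a line at each group mean. ERBB3 stands at 60.7 and 69.3 CPM in parental RKO, at 93.6 in H9-A4 and at 3.91 to 11.96 in the other 6 clones, while HBEGF stands at 77.4 in A9-A12 alone.

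With all 9 samples, 0 of the 7 members with enough counts to be tested were past an adjusted p of 0.05 in DIP2C-/- clones against parental RKO, where 0.00644% of the 15532 genes tested were past it (edgeR's quasi-likelihood test, Benjamini-Hochberg). In DIP2C+/- clones it was also 0 of 7, with 0.0966% of all genes past it. At an unadjusted p under 0.05, 2 of the 7 (ERBB2 and ERBB3) were past the threshold in DIP2C-/- clones, where 12.7% of all genes were, and 0 in DIP2C+/- clones, where 11.6% were. DESeq2's Wald test called 0 of the 6 members to which it gave an adjusted p in either genotype, against 2.23% and 1.35% of all genes with one. It gave none to ERBB3, which it therefore could not call. Without H9-A4, ERBB3 was called lower in both genotypes and was the 1 member of 7 called in each, where 4.76% of 15390 genes were called in DIP2C-/- clones and 7.95% in DIP2C+/- clones. AREG, EREG and BTC did not pass the filter. Where samples of 1 group are said below to lie apart from another group, this is description only. The share of all genes that separate in the same way was not counted.

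ERBB3, the neuregulin receptor on chromosome 12 (56470583 to 56497289 of GRCh37, plus strand), was lower than in parental RKO in 6 of the 7 clones. It had 60.7 and 69.3 CPM in the parental samples, 5.62 in E3 and 6.88 in C10. Among DIP2C+/- clones it had 3.91 CPM in A6-C9, 9.20 in A9-A12, 8.88 in F6-A7 and 11.96 in G1-A5, but 93.6 in H9-A4. The parental mean of 65.0 ± 6.09 CPM (SD, n = 2) was thus 11.6 times the level in E3, 9.45 times that in C10, and between 5.43 times (G1-A5) and 16.6 times (A6-C9) that in the 4 low DIP2C+/- clones, whereas H9-A4 had 1.44 times the parental mean. These 6 clones did not overlap with the parental samples, and H9-A4 lay above both. In bulk RNA, fewer cells with the transcript and less of it per cell cannot be told apart.

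The error of the ERBB3 tests depended on whether H9-A4 entered the fit. With all 9 samples the log2 fold change in DIP2C-/- clones was -3.35 (SE 1.28, adjusted p = 0.354, edgeR quasi-likelihood) and in DIP2C+/- clones -1.35 (SE 0.918, adjusted p = 0.592). Without H9-A4 it was -3.35 (SE 0.409, adjusted p = 0.000973) and -2.92 (SE 0.311, adjusted p = 0.000221). A fit of the DIP2C-/- and parental samples alone, which no DIP2C+/- clone enters, gave -3.36 with an adjusted p of 8.56e-06. That fit called 12.6% of its genes. Other edgeR fits with more than 1 sample per group gave an adjusted p of 0.295 to 0.374 in DIP2C-/- clones. In DIP2C+/- clones they gave 0.534 to 0.743. The fold change of ERBB3 stayed below 0 in every edgeR fit.

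**Figure D2:**
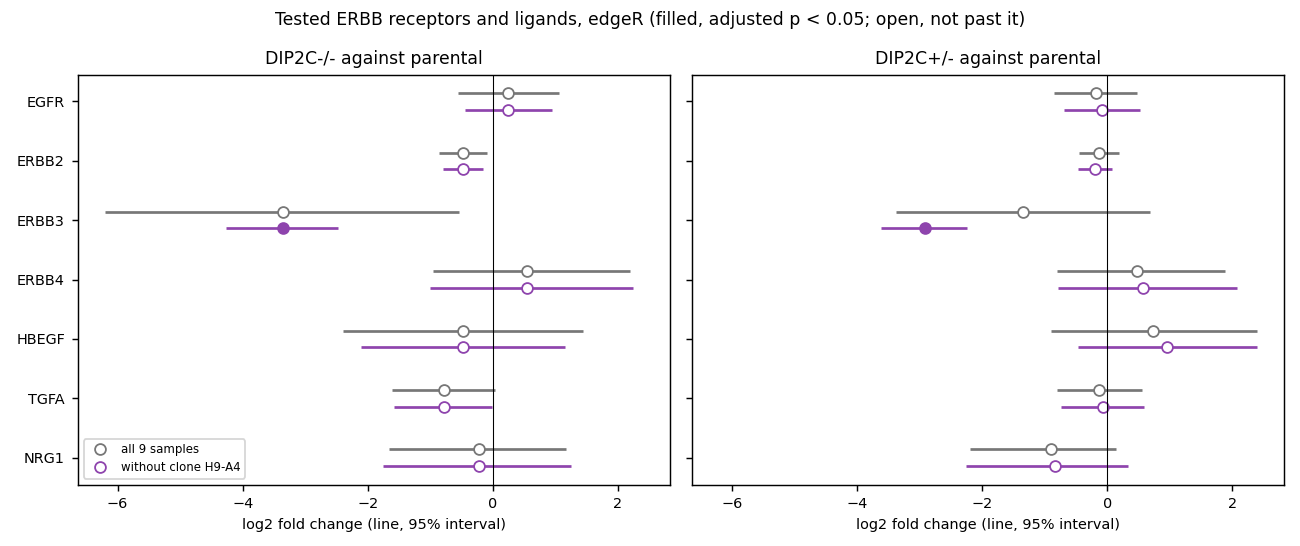
Log2 fold change against parental RKO (horizontal axis) with its 95% interval for the 7 members tested, in DIP2C-/- clones (left) and DIP2C+/- clones (right), with all 9 samples and without H9-A4. Only the points for ERBB3 without H9-A4, at -3.35 and -2.92, are filled, which marks an adjusted p under 0.05.

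ERBB2, the receptor without a known ligand (chromosome 17, 37844167 to 37886679, plus strand), varied least of the tested members, with an SD of log2 CPM of 0.221 over the 9 samples against 1.72 for ERBB3. It had 137 and 131 CPM in parental RKO, 97.1 in E3 and 94.9 in C10, and the DIP2C+/- clones ran from 108 to 146 CPM with a median of 115. The DIP2C-/- clones lay below all 7 other samples. The log2 fold change in DIP2C-/- clones was -0.48 (SE 0.173, adjusted p = 0.340, edgeR), and its adjusted p was 0.0899 without H9-A4 and 0.0323 in the fit of these 2 groups alone, the only one of the alternatives tried to take it past the threshold (range 0.0323 to 0.768). In DIP2C+/- clones the change was -0.13 (95% interval -0.45 to 0.19, adjusted p = 0.767).

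EGFR, the receptor of the EGF-like ligands (chromosome 7, 55086710 to 55279321, plus strand), showed no difference beyond the spread of the libraries. It had 23.8 and 40.1 CPM in the parental samples, 41.3 in E3, 34.8 in C10, and 19.8 to 41.8 CPM in the DIP2C+/- clones with a median of 24.1. The groups overlapped, and the parental samples alone spanned much of the range of the clones. Its log2 value in DIP2C-/- clones was 0.25 above parental RKO (95% interval -0.55 to 1.05, adjusted p = 0.815, edgeR) and -0.19 in DIP2C+/- clones (-0.85 to 0.48, adjusted p = 0.855). An antisense gene, EGFR-AS1, lies within EGFR and had 0.213 to 1.36 CPM. Whether the counting used strand is not given in the sources used here, so reads of the pair may not be told apart.

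ERBB4, the other neuregulin receptor (chromosome 2, 212240442 to 213403565, minus strand), was close to the limit of detection. It had 0.981 and 0.291 CPM in the parental samples, 1.26 in E3, 0.746 in C10 and 0.511 to 1.39 in the DIP2C+/- clones, which rests on 5 to 27 reads per library. Its log2 fold change against parental RKO was 0.55 in DIP2C-/- clones (95% interval -0.95 to 2.19, adjusted p = 0.756, edgeR) and 0.48 in DIP2C+/- clones (-0.80 to 1.89, adjusted p = 0.774), so both intervals reach past a 2-fold rise.

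The 6 clones with little ERBB3 had a smaller share of it among the receptor transcripts. The share, the ratio to ERBB2 and the receptor sum all include ERBB3, so they are not independent of its level. Of the summed CPM per kb of the 4 receptors, ERBB3 made up 24.9% and 27.3% in the parental samples, 3.76% in E3, 4.78% in C10, 2.37% to 7.30% in 4 of the DIP2C+/- clones and 32.9% in H9-A4. ERBB2 exceeded ERBB3 per kb 2.79 and 2.33 times in the parental samples and 1.92 times in H9-A4, but 11.5 times (G1-A5) to 36.3 times (A6-C9) in the other 6 clones. The sum itself was 43.5 and 45.1 CPM per kb in parental RKO, 50.7 in H9-A4 and 25.6 to 32.8 in the other 6 clones. Among the ligands, HBEGF made up 59.3% to 78.0% of the sum in all samples except A9-A12, where it made up 89.9%.

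HBEGF, a membrane-bound ligand of EGFR and ERBB4 (chromosome 5, 139712428 to 139726188, minus strand), was the most abundant ligand per kb in every library. It had 14.80 and 16.4 CPM in the parental samples, 12.5 in E3 and 9.91 in C10. In the DIP2C+/- clones it had 16.9 CPM in A6-C9, 77.4 in A9-A12, 16.3 in F6-A7, 11.4 in G1-A5 and 8.53 in H9-A4. A9-A12 stood at 4.96 times the parental mean, the other 4 DIP2C+/- clones lay around or below the parental samples, and both DIP2C-/- clones lay below them. Against parental RKO its log2 fold change was -0.48 for DIP2C-/- (SE 0.868, adjusted p = 0.860, edgeR) and 0.74 in DIP2C+/- clones (SE 0.745, adjusted p = 0.742). The latter was -0.23 without A9-A12 (adjusted p = 0.839), so its sign rested on that clone.

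TGFA, a ligand of EGFR (chromosome 2, 70674416 to 70781325, minus strand), was not past the test in either genotype, though both DIP2C-/- clones lay below both parental samples. It had 13.1 and 10.01 CPM in parental RKO, 5.71 in E3 and 7.57 in C10, and 7.88 to 14.5 CPM in the DIP2C+/- clones with a median of 9.06. The DIP2C+/- clones overlapped with the parental samples. The change on the log2 scale was -0.79 for DIP2C-/- clones (SE 0.371, adjusted p = 0.407, edgeR, range over the alternatives 0.0911 to 0.834) and -0.12 in DIP2C+/- clones (95% interval -0.80 to 0.55, adjusted p = 0.909).

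NRG1, a neuregulin and ligand of ERBB3 and ERBB4 (chromosome 8, 31496738 to 32713184, plus strand), was near 1 CPM or below. It had 0.938 and 1.11 CPM in the parental samples, 1.11 in E3, 0.640 in C10, and 0.255 (G1-A5) to 0.873 (F6-A7) in the DIP2C+/- clones with a median of 0.403. All 5 DIP2C+/- clones lay below both parental samples, on 6 to 17 reads each. The log2 fold change in these clones was -0.90 (SE 0.527, adjusted p = 0.478, edgeR, range over the alternatives 0.387 to 0.870), and in DIP2C-/- clones -0.23 (95% interval -1.67 to 1.16, adjusted p = 0.907).

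The genes of AREG, EREG and BTC lie near one another on chromosome 4, and none was clearly above the limit of detection across the libraries. EREG (75230862 to 75254466, plus strand), a ligand of EGFR and ERBB4, had 3 to 5 reads in 7 libraries, 14 in E3 (0.678 CPM) and 9 in A9-A12 (0.380 CPM). BTC (75669969 to 75719733, minus strand), which binds the same receptors, had 0 to 3 reads in every library. AREG (75310853 to 75320722, plus strand), a ligand of EGFR, had 3 reads in the second parental sample and 0 in the other 8 libraries, each of which allows up to 3 reads, or 0.121 to 0.160 CPM. AREG has a near-identical copy, AREGB (75480629 to 75490486), which has no value of its own in the data. How reads that match both were handled is not known, so the level of AREG is uncertain. No fold is given for AREG and BTC, which were at or under the limit in all groups. AREG and EREG are the 2 printed promoters that hold TATAAA.

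DIP2C+/- and DIP2C-/- clones were also compared directly. With all 9 samples, 0 of the 7 members were called where 0% of the 15532 genes were (edgeR), and 1 of the 7, ERBB2, had an unadjusted p under 0.05, as did 5.57% of all genes. ERBB3 differed by a log2 value of 2.01 (DIP2C+/- minus DIP2C-/-, SE 1.11, adjusted p = 0.879) with H9-A4 and 0.43 without it (95% interval -0.32 to 1.199, adjusted p = 0.818). Without H9-A4, 0 of 7 were called as well, where 0% of 15390 genes were, and 2 of the 7 (ERBB2 and TGFA) had an unadjusted p under 0.05, as did 7.1% of all genes. DESeq2 called 0 of the 6 members to which it gave an adjusted p, ERBB3 not among them, against 0.0388% of all genes.

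ERBB3 was also set beside the genes around it. Within 100 kb, 12 other genes were annotated with a row in the data, all were tested and none overlaps ERBB3. Their log2 fold changes without H9-A4 ran from -0.85 (RPL41, a ribosomal protein gene, in DIP2C-/- clones, adjusted p = 0.0739, edgeR) to 0.87 (PA2G4, the next gene downstream, which encodes an ERBB3-binding protein, in DIP2C+/- clones). PA2G4 was the 1 gene of 12 that was called, in DIP2C+/- clones (adjusted p = 0.00990), where 7.95% of all genes were. With all 9 samples its change there was 0.71 (adjusted p = 0.415) and 0 of the 12 were called. It had 383 and 358 CPM in parental RKO, 498 and 533 in the DIP2C-/- clones, 309 in H9-A4 and 597 to 872 in the other DIP2C+/- clones. RNF41, a ubiquitin ligase for ERBB3 that lies in the same stretch, had 68.3 and 82.9 CPM in parental RKO and 62.7 to 94.7 in the clones, with log2 fold changes of -0.16 and 0.06 without H9-A4.

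The genes with a pattern most like that of the 3 most variable tested members were found by the root mean square difference of mean-centred log2 CPM over the 9 samples. For ERBB3 they were IRS1 at 0.385, EPPK1 at 0.426 and TNFRSF21 at 0.478, where the median tested gene stood at 1.66. The nearest genes lie under the median by the way they were chosen. EPPK1 had only 0.339 to 0.718 CPM in the 6 clones with little ERBB3. IRS1, the insulin receptor substrate, had 316 and 333 CPM in parental RKO, 462 in H9-A4 and 21.8 to 31.7 in the other 6 clones. For HBEGF they were LOC348761 at 0.392, AGBL2 at 0.395 and PLAU at 0.411, against a median of 0.935. LOC348761 had 0.362 to 2.53 CPM and AGBL2 0.242 to 2.03, so both matches rest on few reads. PLAU, the urokinase gene, had 43.1 CPM in A9-A12 and 5.96 to 17.0 in the other samples. For NRG1 they were LOC100506585 at 0.145, LOC100130231 at 0.250 and CACNA1G at 0.259, against a median of 0.703, with all 3 at 1.36 CPM or less in each sample. These distances are descriptions over 9 samples, and the genes compared within a sample share its library and depth.

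Lists of other genes of the pathway held 49 genes, of which 46 were tested. With all 9 samples 0 of 46 were called in either genotype (edgeR), while 10 in DIP2C-/- clones and 8 in DIP2C+/- clones had an unadjusted p under 0.05, as did 12.7% and 11.6% of all genes. DESeq2 called 1 of the 41 and 3 of the 42 to which it gave an adjusted p, against 2.23% and 1.35% of all genes. The counts that follow are without H9-A4, against the 4.76% and 7.95% of all genes called there, and the median log2 fold change of all genes tested was 0.02 in DIP2C-/- clones and 0.01 in DIP2C+/- clones.

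Of the transcripts of ERK output, genes whose transcription follows ERK activity in many cells, 4 of 10 were higher, 1 was lower and 5 were not called, in either genotype. The median of the list was 0.39 in DIP2C-/- clones and 0.31 in DIP2C+/- clones. DUSP5, an ERK phosphatase, rose by 1.98 and 2.22 on the log2 scale (SE 0.190 and 0.178), from 62.3 and 87.1 CPM in parental RKO to 294 and 295 in the DIP2C-/- clones. Its relative DUSP6 rose by 1.04 and 0.84, FOSL1, an AP-1 subunit, by 1.08 and 1.34, and SPRY4, an inhibitor of receptor signalling, by 1.52 and 1.46. SPRY2, of the same family as SPRY4, fell by 1.63 and 1.72 (SE 0.225 and 0.183), from 73.4 and 80.0 CPM to 22.7 and 26.9 in the DIP2C-/- clones. H9-A4 lay on the other side of both parental samples for all 5 genes, with 10.8 CPM of DUSP5, 37.7 of DUSP6, 65.5 of FOSL1, 98.9 of SPRY4 and 141 of SPRY2. These 5 genes were named because they were called without H9-A4. In how many of all called genes H9-A4 does the same was not counted, so the pattern may not be particular to this list.

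The adaptors and effectors that couple the receptors to RAS and PI3K had 1 gene higher and 16 not called of 17 in DIP2C-/- clones, and 3 higher and 14 not called in DIP2C+/- clones, with medians of 0.05 and 0.17. EPS8, a substrate of EGFR, rose by 1.32 and 1.25 (SE 0.246 and 0.222), and H9-A4, at 26.8 CPM against 12.97 and 10.07 in parental RKO, was within the 21.4 to 33.8 CPM of the other 6 clones. SHC1 and PIK3R2, an adaptor and a PI3K subunit, rose by 0.91 and 0.56 in DIP2C+/- clones. In DIP2C-/- clones their changes were 0.57 (adjusted p = 0.0778) and 0.47 (adjusted p = 0.158). SHC1 had 294 and 293 CPM in parental RKO, 255 in H9-A4 and 427 to 632 in the other clones. PIK3R2 had 129 and 134 CPM in parental RKO, 145 in H9-A4 and 163 to 229 in the other clones.

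Of the genes for receptor inhibitors and degradation, 0 of 11 were called in DIP2C-/- clones and 2 of 11 were lower in DIP2C+/- clones, with medians of -0.16 and -0.14. PTPN1, a tyrosine phosphatase, fell by 0.66 and LRIG3, of the family of the receptor inhibitor LRIG1, by 0.63 in DIP2C+/- clones, with values of -0.57 (adjusted p = 0.0508) and -0.73 (adjusted p = 0.0694) in DIP2C-/- clones. PTPN1 had 318 and 289 CPM in parental RKO, 241 in H9-A4 and 169 to 209 in the other clones. LRIG3 had 31.2 and 34.2 CPM in parental RKO, 34.0 in H9-A4 and 17.6 to 24.8 in the other clones. Of the ligand shedding genes, 1 of 4 tested was higher in each genotype, with medians of 0.25 and 0.29. It was RHBDF2, a partner of the sheddase ADAM17, which rose by 0.90 and 1.33 (SE 0.195 and 0.178), from 12.5 and 14.3 CPM to 21.8 and 28.2 in the DIP2C-/- clones. RHBDF2 had 16.3 CPM in H9-A4, nearer to the parental samples than the 21.8 to 36.4 CPM of the other clones. Of the 4 other ligands tested, 0 were called, with medians of 0.00 and -0.06.

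**Figure D3:**
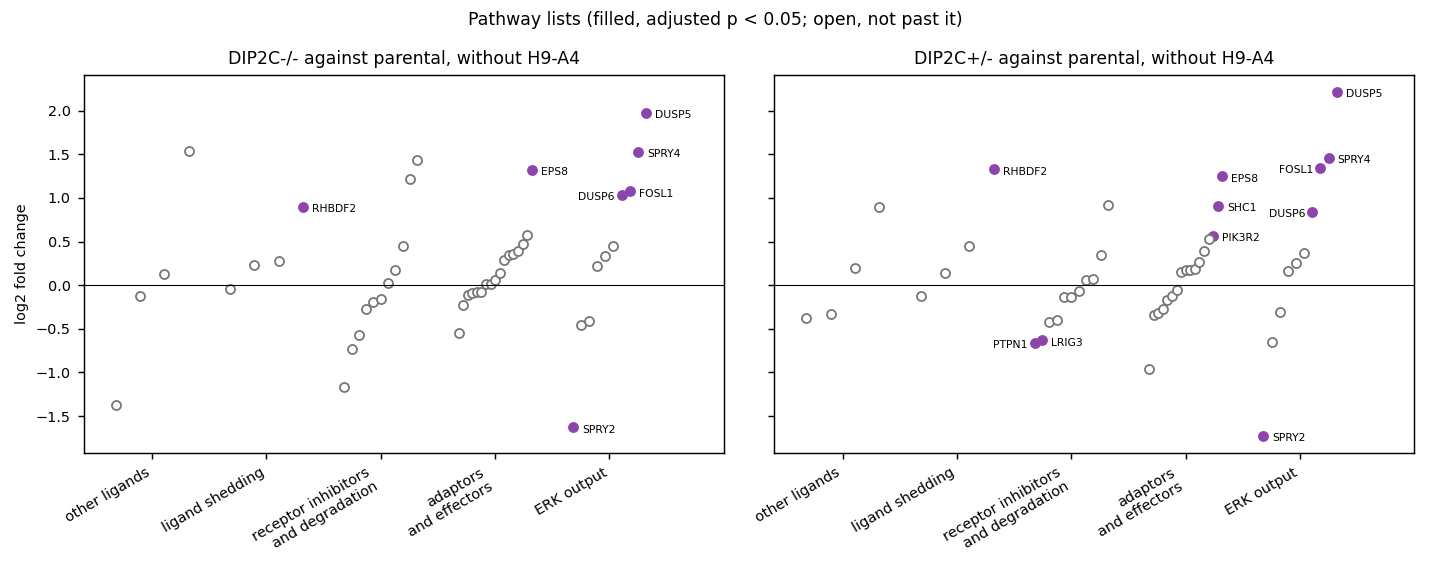
Log2 fold change against parental RKO without H9-A4 (vertical axis) of the genes tested in 5 pathway lists, ordered by value within each list, in DIP2C-/- clones (left) and DIP2C+/- clones (right). Filled, named points have an adjusted p under 0.05, 7 of 46 on the left and 11 of 46 on the right, and SPRY2 is the lowest on both sides.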

How the data were processed

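RNA of 9 RKO samples had been sequenced on the Ion Proton system. The submitters' processing notes name TopHat2 2.0.4, Cufflinks 2.2.1 and hg19. The authors deposited estimated counts, 1 for each of 23619 genes, and how the authors wrote them from Cufflinks is not given in the sources used here. In each sample, 97.5% to 98.0% of low values were whole multiples of 1 step (tolerance 0.02 of a step), between 0.711 and 1.11, so 1 read was worth 1 step and the totals correspond to 17134472 to 24863895 reads. Whole counts had been assumed in the design, and the estimated counts were rounded.

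Genes were kept with edgeR's filterByExpr (15532 left), scaled by TMM and tested with edgeR 4.0.16 (R 4.3.3), by the quasi-likelihood F test with 1 coefficient per genotype over all 9 samples and Benjamini-Hochberg adjustment over all genes tested. A gene was called at an adjusted p under 0.05. Fold changes carry a prior count of 2, which understates those of genes with few counts. Genotypes were taken from the labels, which give no batch or date, so batches were not examined. Libraries of 1 group all differed by more than counting noise, so none was taken for another deposited again. This does not show that they are independent. Floors and intervals on reads cover counting error only.

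The alternatives were DESeq2 1.42.0 (Wald test), its size factors in edgeR, library size only, no filter, at least 10 counts in every sample, only the groups compared, each sample left out and a prior count of 0.5. Values divided by the step were chosen after seeing the data. The members and lists were chosen with earlier results of these data known. All 10 members were named, with the listed pathway genes called in either genotype against parental RKO, with or without H9-A4 (at most 12), and the 3 genes nearest in pattern to each of the 3 members with the largest SD. RPL41, PA2G4 and RNF41 were named after their values were seen. Gene positions and transcript lengths come from GENCODE 44 on GRCh37, which has the coordinates of hg19.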

Additional observations from a re-analysis of the deposited data

Results flagged for a closer look

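Among the 5 DIP2C+/- clones, 2 values stood far from the rest of their group, judged by the gap to the nearest clone over the whole range of the group against Dixon's limit of 0.71 for 5 samples. ERBB3 had 93.6 CPM in H9-A4, with a gap over range of 0.910 and the nearest clone at 11.96 CPM. HBEGF had 77.4 CPM in A9-A12, with a gap over range of 0.879 and the nearest clone at 16.9 CPM. They are 2 of 8 members examined, and chance gives such a gap in about 1 of 20 groups if values are normally distributed. The gaps were taken on CPM, and the flags depend on that scale. In log2 CPM minus the parental mean, ERBB3 stood at 0.530 in H9-A4, -2.43 in G1-A5 and -4.01 in A6-C9. HBEGF stood at 2.30 in A9-A12, 0.113 in A6-C9 and -0.860 in H9-A4. On these log2 values both gaps over range are under 0.71. The other genotypes have 2 samples each and were not examined in this way. What sets these clones apart was not tested.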

How the results depend on the processing

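The number of members called moved under 2 alternatives. In DIP2C-/- clones it was 0 with all 9 samples, 2 (ERBB2 and ERBB3) in the fit of only the 2 groups compared, and 0 to 1 with each sample left out, and in DIP2C+/- clones 0 with all 9 samples and 0 to 1 with each sample left out. Both counts of 1 were ERBB3 without H9-A4, the library whose ERBB3 value lies outside the rest of its group. The other 45 counts of called members, between the genotypes included, stayed at 0, though those of DESeq2 could not include ERBB3. Of single fold changes, 380 kept their sign and side of the threshold, 9 passed it and 10 changed sign, the last of these all in fits that left out 1 sample and all at an adjusted p over 0.8. These counts take in DIP2C beside the tested members, and the 9 were of DIP2C, ERBB2 and ERBB3. With each sample left out in turn, the log2 fold changes that changed sign ran as follows. In DIP2C-/- clones, EGFR ran from -0.094 (without the first parental sample) to 0.65, ERBB4 from -0.0030 (without the second) to 1.38 and NRG1 from -0.61 to 0.062 (without C10). In DIP2C+/- clones, EGFR ran from -0.51 to 0.24 and ERBB4 from -0.050 to 1.32 (sign changed without the second parental sample), TGFA from -0.30 to 0.079 (without the first) and HBEGF from -0.23 (without A9-A12) to 0.96. Between the genotypes, ERBB4 ran from -0.36 to 0.34, above 0 without E3, H9-A4 (0.019) or G1-A5 (0.081). DESeq2 gave ERBB3 no adjusted p, so its 3 values are not counted here, and at least 10 counts in every sample left 5 members tested. Fits that leave 1 sample in a group assume that it varies like the other groups. With 2 samples in 2 of the groups, and 5 to 27 reads in ERBB4 and 6 to 23 in NRG1, moderate changes could not be resolved. No paired analysis was possible because the labels give no number that pairs samples across the genotypes and do not say which DIP2C+/- clone gave rise to both DIP2C-/- clones.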
